A study of Mus musculus with 10 samples.

Results

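Cytosolic ribosomal protein genes were followed in mouse left atria as a group of 77 genes among the 37583 gene rows counted. Members were chosen by symbol, as protein-coding genes whose name is Rpl or Rps with a number (and at most 1 of the letters a, l, x or y), together with Rplp0, Rplp1, Rplp2 and Rpsa, with 10 or more counts in at least 3 libraries. Of 81 symbols that matched, Rpl6l and Rps4l were left out as pseudogenes and Rpl10l and Rpl39l for too few counts. The 77 members comprise 46 genes of the large subunit and 31 of the small subunit, all had 10 or more counts in every library, and all were tested. Rpl24 was not analysed here, and Rps3a1, Fau and Rack1, which also encode ribosomal proteins or parts of them, fall outside the naming rule and are described separately.

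The cytosolic ribosome is built from ribosomal RNA and a fixed set of proteins that, in general, join it in equal copy number, and the proteins' genes are therefore usually transcribed in a coordinated way. In vertebrates their messages typically begin with a cytosine followed by a run of pyrimidines, the 5′ terminal oligopyrimidine (TOP) tract, through which translation of the whole family responds to mTOR. Heart muscle additionally makes Rpl3l, a striated-muscle version of the core large-subunit protein Rpl3, and the amount of ribosomes is one determinant of how much protein a growing heart muscle cell can make.

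The libraries were made from polyadenylated RNA of left atria of adult mice. In the drug experiment, 3 libraries came from vehicle-treated mice (CTL) and 3 from mice that received ibrutinib (IBR), a drug for B cell cancers that blocks Bruton's tyrosine kinase. In the genotype experiment, 2 libraries came from untreated wild-type mice (WT) and 2 from untreated mice labelled as carrying a cardiac knockout of Csk (KO), the kinase that holds Src family kinases inactive. The driver of the knockout, the strain, the sex, and the ibrutinib dose and duration are not stated in the labels, and nothing in the labels says that each library came from a separate animal, so that every p-value measures only the spread between these libraries.

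Each library held 14907331 to 19960947 counts on genes. Levels are CPM, each library's counts set to a common total after scaling by the trimmed mean of M values (TMM). The atrial cardiomyocyte markers Myl7, Nppa, Sln, Myl4 and Stard10 summed to 9117 to 30542 CPM and the ventricular markers to 6.16 to 174 CPM, so the defining markers of the labelled tissue were present. Csk, the gene named by the genotype label, had 18.3 and 17.8 CPM in the WT libraries and 24.7 and 35.5 CPM in those labelled KO. Since atria hold many cell types and reads were summed along the entire locus, a muscle-restricted or partial deletion need not show in these counts, the Csk counts do not check the genotype label, and the libraries are called labelled KO. KO26 and KO337 had a Spearman correlation of 0.955 over all genes, where pairs within the other groups had 0.984 to 0.991.

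Transcription starts of 7 members are shown first because they carry the feature by which the family is known, a pyrimidine run at the start of the message, or lack it. The sequences are RefSeq's on GRCm38.p6, from 30 bases before to 20 bases after the annotated start, on the strand of the gene, 5′ to 3′. Capitals mark the longest run of 5 or more pyrimidines that begins with C, or both runs where 2 are equally long. Rps18 and Rpl13a were among the genes with the largest differences between the libraries labelled KO and WT, Rpsa and Rps6 were among the smallest, Rps27 was among the members with the highest levels per length, and Rpl3l and Rps27l are the members that are paralogues of other members.
Rps18 (chr17:33955646-33955695, minus strand): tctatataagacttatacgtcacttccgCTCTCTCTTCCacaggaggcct
Rps6 (chr4:86857348-86857397, minus strand): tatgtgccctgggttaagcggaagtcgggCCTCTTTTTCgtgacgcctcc
Rps27 (chr3:90213629-90213678, minus strand): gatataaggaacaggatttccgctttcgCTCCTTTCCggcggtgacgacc
Rpl13a (chr7:45128726-45128775, minus strand): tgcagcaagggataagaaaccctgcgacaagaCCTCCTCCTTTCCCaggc
Rpsa (chr9:120127736-120127785, plus strand): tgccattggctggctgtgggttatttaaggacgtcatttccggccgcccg
Rpl3l (chr17:24727796-24727845, plus strand): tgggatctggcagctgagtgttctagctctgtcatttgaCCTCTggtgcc
Rps27l (chr9:66946056-66946105, plus strand): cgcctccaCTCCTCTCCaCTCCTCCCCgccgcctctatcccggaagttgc

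The run was 11 bases long in Rps18, 10 in Rps6, 9 in Rps27 and 14 in Rpl13a, and it began within 3 bases of the annotated start in these 4 genes. In Rpl3l it was 5 bases long and began 10 bases into the message, in Rps27l 2 runs of 9 bases began 22 and 12 bases before the annotated start, and the Rpsa window held none. RefSeq lists 2 starts for Rpl3l and for Rps27l, of which 1 each is shown.

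The promoter table matched 57 of the 77 members, and the other 20 were not analysed in it. A C followed by 4 pyrimidines at an annotated start was found in 13 of the 57 members (22.8%) and in 3.01% of the 27025 genes of the table. In the 300 bases from 250 before to 50 after the start, CCGGAA, the core letters bound by ETS family factors such as GABP, was present on either strand in 32 members (56.1%) against 16.7% of all genes. CTTTCC, a short pyrimidine word, was present on either strand in 29 members (50.9%) against 29.3%, and TATAAA in 6 members (10.5%) against 15.7%. The words can overlap, since CTTTCC may run on as CTTTCCGG, whose other strand starts CCGGAA, and that longer word was present in 3 members (5.26% against 1.21%). A match is a description of letters in these windows.

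Levels differed widely among members when set per kilobase of coding sequence and averaged over the CTL and WT libraries. The median member stood at 390 CPM per kilobase, with a range from 22.2 to 2436. Rpl41, the shortest ribosomal protein, was highest at 2436 CPM per kilobase, followed by the stalk protein Rplp1 at 1045, the small-subunit zinc-finger protein Rps29 at 959 and Rps27 at 785. The 4 lowest were Rpl10a at 165, Rpl35 at 94.6, Rpl23a at 60.7 and the muscle paralogue Rpl3l at 22.2 CPM per kilobase. For a family whose products join the ribosome in about equal number this is a wide spread, and reads that also match a pseudogene were dropped by the counting. The part of lost reads in the order of the levels was not tested, and coding length leaves out the untranslated ends, which weigh most in the shortest genes.

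The order of members by mean level was almost the same in CTL and IBR (Spearman 0.994 over 77 genes) and in WT and labelled KO (0.989), where the members share the libraries of each group. Between CTL and WT the correlation was 0.879, and the WT level was a median 58.4% of the CTL level, below it in 76 of 77 members. These are 2 separate experiments, and the difference between them was not tested.

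Summed over the 77 genes, ribosomal protein messages took 1.09% to 1.90% of all gene counts. The sum was 20646, 21833 and 14922 CPM in CTL1, CTL2 and CTL3 and 18358, 16531 and 16178 CPM in IBR1, IBR2 and IBR3. The IBR libraries lay between CTL3 and the other CTL libraries, so the groups overlapped. In WT35 and WT338 the sum was 11844 and 10613 CPM, and in KO26 and KO337 it was 11913 and 12584 CPM.

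**Figure D1:**
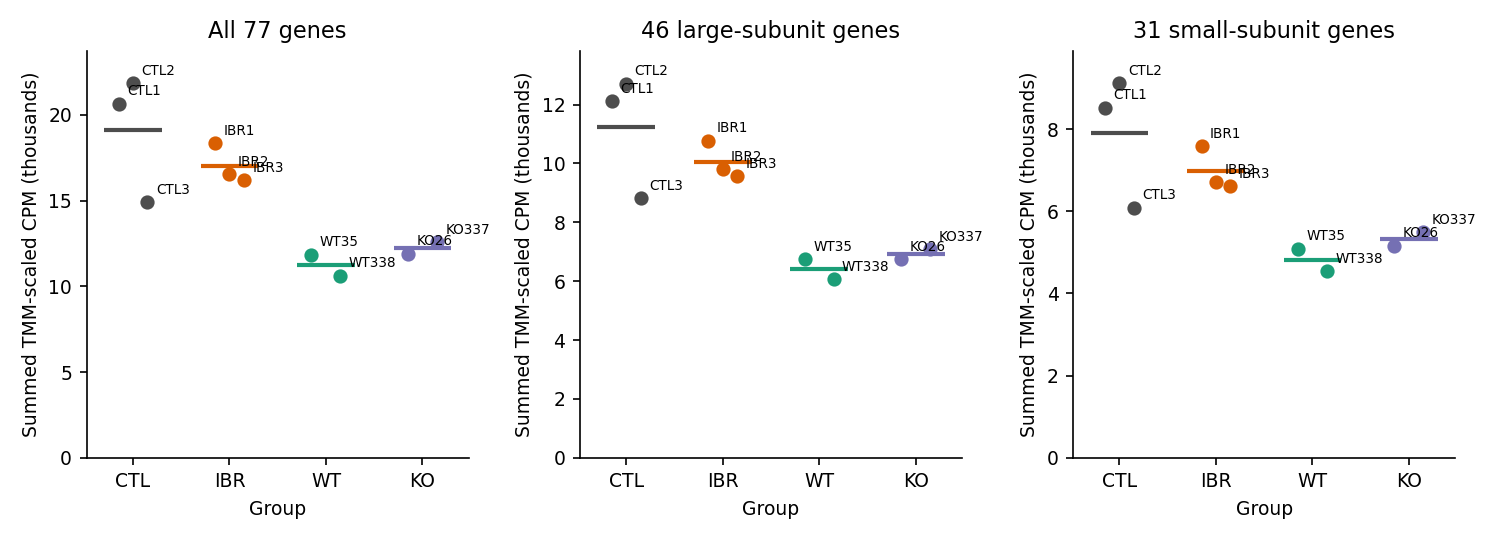
Summed CPM of all 77 ribosomal protein genes, of the 46 large-subunit and of the 31 small-subunit genes (y axes, CPM) in each library, by group (x axis). Each point is a library and each horizontal bar the group mean. For all 77 genes CTL3, at 14922 CPM, lies below all IBR libraries, and with TMM scaling both libraries labelled KO lie just above both WT libraries. The large-subunit sum was 6751 CPM in KO26 and 6753 CPM in WT35.

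On the log2 scale the summed level differed by -0.15 between IBR and CTL (two-sided exact permutation test over libraries, p = 0.4, smallest possible p 0.1, adjusted p = 0.622 over 14 such comparisons of libraries). Labelled KO minus WT was 0.13 (exact permutation p = 0.333, the smallest that 2 against 2 libraries allow, adjusted p = 0.622). With DESeq2 size factors it was 0.12 and without the filter on low counts 0.09 (exact permutation p = 0.667 for each), so the groups then overlapped. Neither difference was thus shown to exceed the spread between libraries. The ratio of the large-subunit to the small-subunit sum was 1.42 ± 0.028 in CTL and 1.44 ± 0.0209 in IBR (SD, n = 3 libraries each; exact permutation p = 0.5), and 1.33 and 1.33 in WT against 1.31 and 1.29 in the libraries labelled KO. Both subunits therefore moved by nearly the same factor in each library.

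The members varied together between libraries of the same group. CTL3 was the lowest CTL library for 77 of 77 members, with a median 0.34 below the group mean on the log2 scale, while CTL1 and CTL2 were above the mean for all 77. IBR1 was the highest IBR library for 69 members, and WT35 was above WT338 for 76, the exception being Rps27l at 38.6 and 40.6 CPM. KO337 was above KO26 for 51. The libraries that were high for these genes also had the larger share of reads without a unique position within the CTL group, at 23.7% and 27.4% in CTL1 and CTL2 against 19.2% in CTL3. In IBR1, IBR2 and IBR3 that share was 22.0%, 17.9% and 20.3%, in WT35 and WT338 14.7% and 13.8%, and in KO26 and KO337, where the latter was the higher for most members, 13.6% and 11.8%. Its part in the summed level was not tested.

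**Figure D2:**
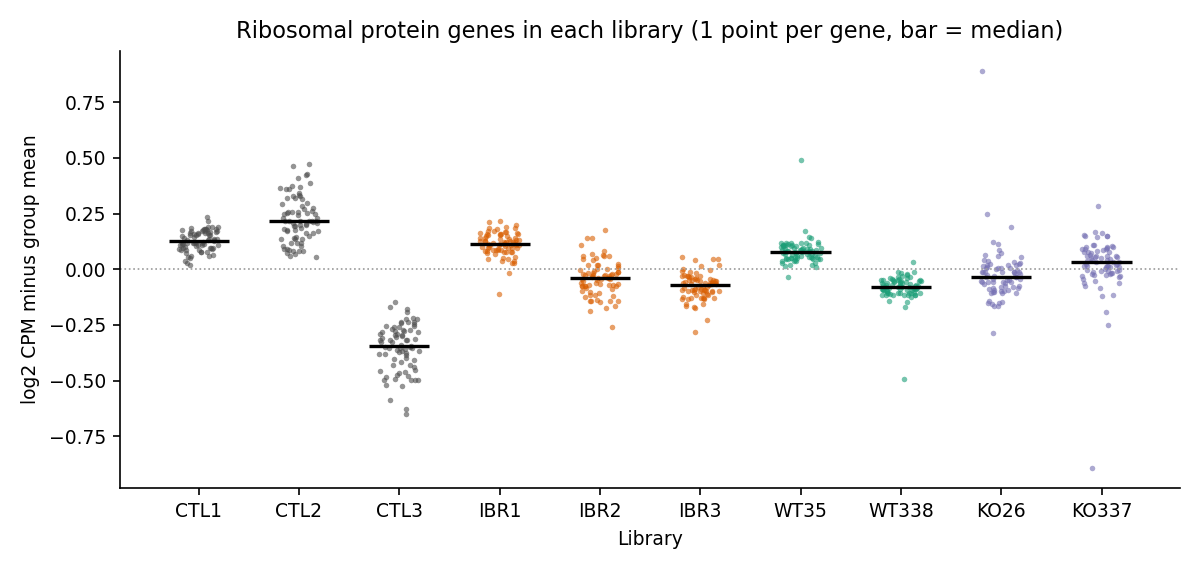
Deviation of each of the 77 ribosomal protein genes from its group mean (y axis, log2 CPM) in each library (x axis), with 1 point per gene and a bar at the median. All points of CTL3 lie below 0 and all points of CTL1 and CTL2 above it; the outlying point in KO26 and KO337 is Rpl3l and that in WT35 and WT338 is Rpl29.

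Between ibrutinib and vehicle no ribosomal protein gene passed the test. In edgeR's quasi-likelihood test 0 of 77 members were called at an adjusted p under 0.05, as were 0% of the 15364 genes tested, and the smallest adjusted p of a member was 0.823. At an unadjusted p under 0.05 there were 0 members against 5.52% of all genes, and DESeq2 called 0 members and 2 genes in all. The fitted log2 difference was below 0 in all 77 members, where 55.2% of all genes were below 0, with a median of -0.17 against -0.03 over all genes. With libraries scaled by total count alone 67 of the 77 were below 0 and the median was -0.08, against 0.05 over all genes. The CTL and IBR libraries overlapped for all 77 members, while 7.55% of all genes were lower and 5.91% higher in IBR without overlap.

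The estimate moved with the CTL libraries. All IBR libraries were below CTL1 and CTL2 for 74 members and all were above CTL3 for 60 members. Without CTL3 the median was -0.32, without CTL1 it was -0.12 and without CTL2 -0.05 with 64 of 77 members below 0, and edgeR called 0 members in each case. The fold differences were bounded more tightly than the calls convey: the 95% interval lay within a 2-fold change in either direction for 76 members, the exception being Rpl3l, and within a 1.5-fold change for 49. Leukocyte markers summed to 73.1 to 111 CPM in CTL and 126 to 206 CPM in IBR, and fibroblast markers to 807 to 1236 and 1291 to 1971 CPM, all 7 and all 5 of them detected in each group. For IBR minus CTL 6 leukocyte markers were above 0 and 1 below (log2 -0.60), and all 5 fibroblast markers were above 0. Without overlap 2 and 3 of them were higher (5.91% of all genes), and 0 were called by edgeR. Atrial cardiomyocyte markers summed to 29502 and 30542 CPM in CTL1 and CTL2, 21878 CPM in CTL3 and 20435 to 24781 CPM in IBR, and all 5 were below 0 for IBR minus CTL (median -0.30), with groups that overlapped for each of the 5. The part of these markers' cells in the ribosomal protein values was not tested, and in tissue RNA fewer cells of a type and less RNA per cell cannot be told apart.

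Among large-subunit members, the lowest differences belonged to Rpl3l, Rpl41, Rpl36 and Rpl27. Rpl41 stood at 224, 295 and 149 CPM in CTL and 192, 162 and 159 CPM in IBR, a log2 difference of -0.38 (SE 0.21) with an adjusted p of 0.823 in edgeR's test. Rpl36 stood at 172, 206 and 115 against 129, 139 and 113 CPM, a difference of -0.37, and Rpl27 at 114, 116 and 77.8 against 91.8, 77 and 76.6 CPM, a difference of -0.33. In each of these 3 genes all IBR libraries were below CTL1 and CTL2, and at least 1 of them was above CTL3.

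At the other end, Rpl22, an RNA-binding protein at the outer face of the large subunit, stood at 154, 159 and 117 CPM in CTL and 139.6, 143 and 141 CPM in IBR, a log2 difference of -0.02. Rpl7, with a difference of -0.05, and Rpl10, which helps shape the site of peptide bond formation, with -0.06, were also close to 0. The stalk proteins, which recruit the GTPases of translation, lay below the family's median of -0.17. Rplp0 stood at 933, 1027 and 698 CPM in CTL against 817, 787 and 723 CPM in IBR (log2 -0.19), and Rplp1 and Rplp2 differed by -0.24 and -0.22. Rpl5 and Rpl11, which together with 5S ribosomal RNA can bind Mdm2 and so link ribosome assembly to p53, had differences of -0.22 and -0.18.

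Small-subunit members spanned -0.31 (Rps2) to nearly 0 (Rps4x). Rps2, which lines the entry of the messenger RNA channel, had the smallest unadjusted p of all members, 0.0617, at 729, 726 and 564 CPM in CTL and 567, 566 and 494 CPM in IBR. Its adjusted p in edgeR's test was 0.823, and of the IBR libraries only IBR3 lay under CTL3. Rps4x, encoded on the X chromosome, stood at 566, 522 and 424 CPM in CTL and 539, 486 and 486 CPM in IBR, a log2 difference of -0.0012. Rps6, the ribosomal protein phosphorylated by S6 kinase, differed by -0.08, and Rpsa, a protein of the back of the small subunit, by -0.24.

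**Figure D3:**
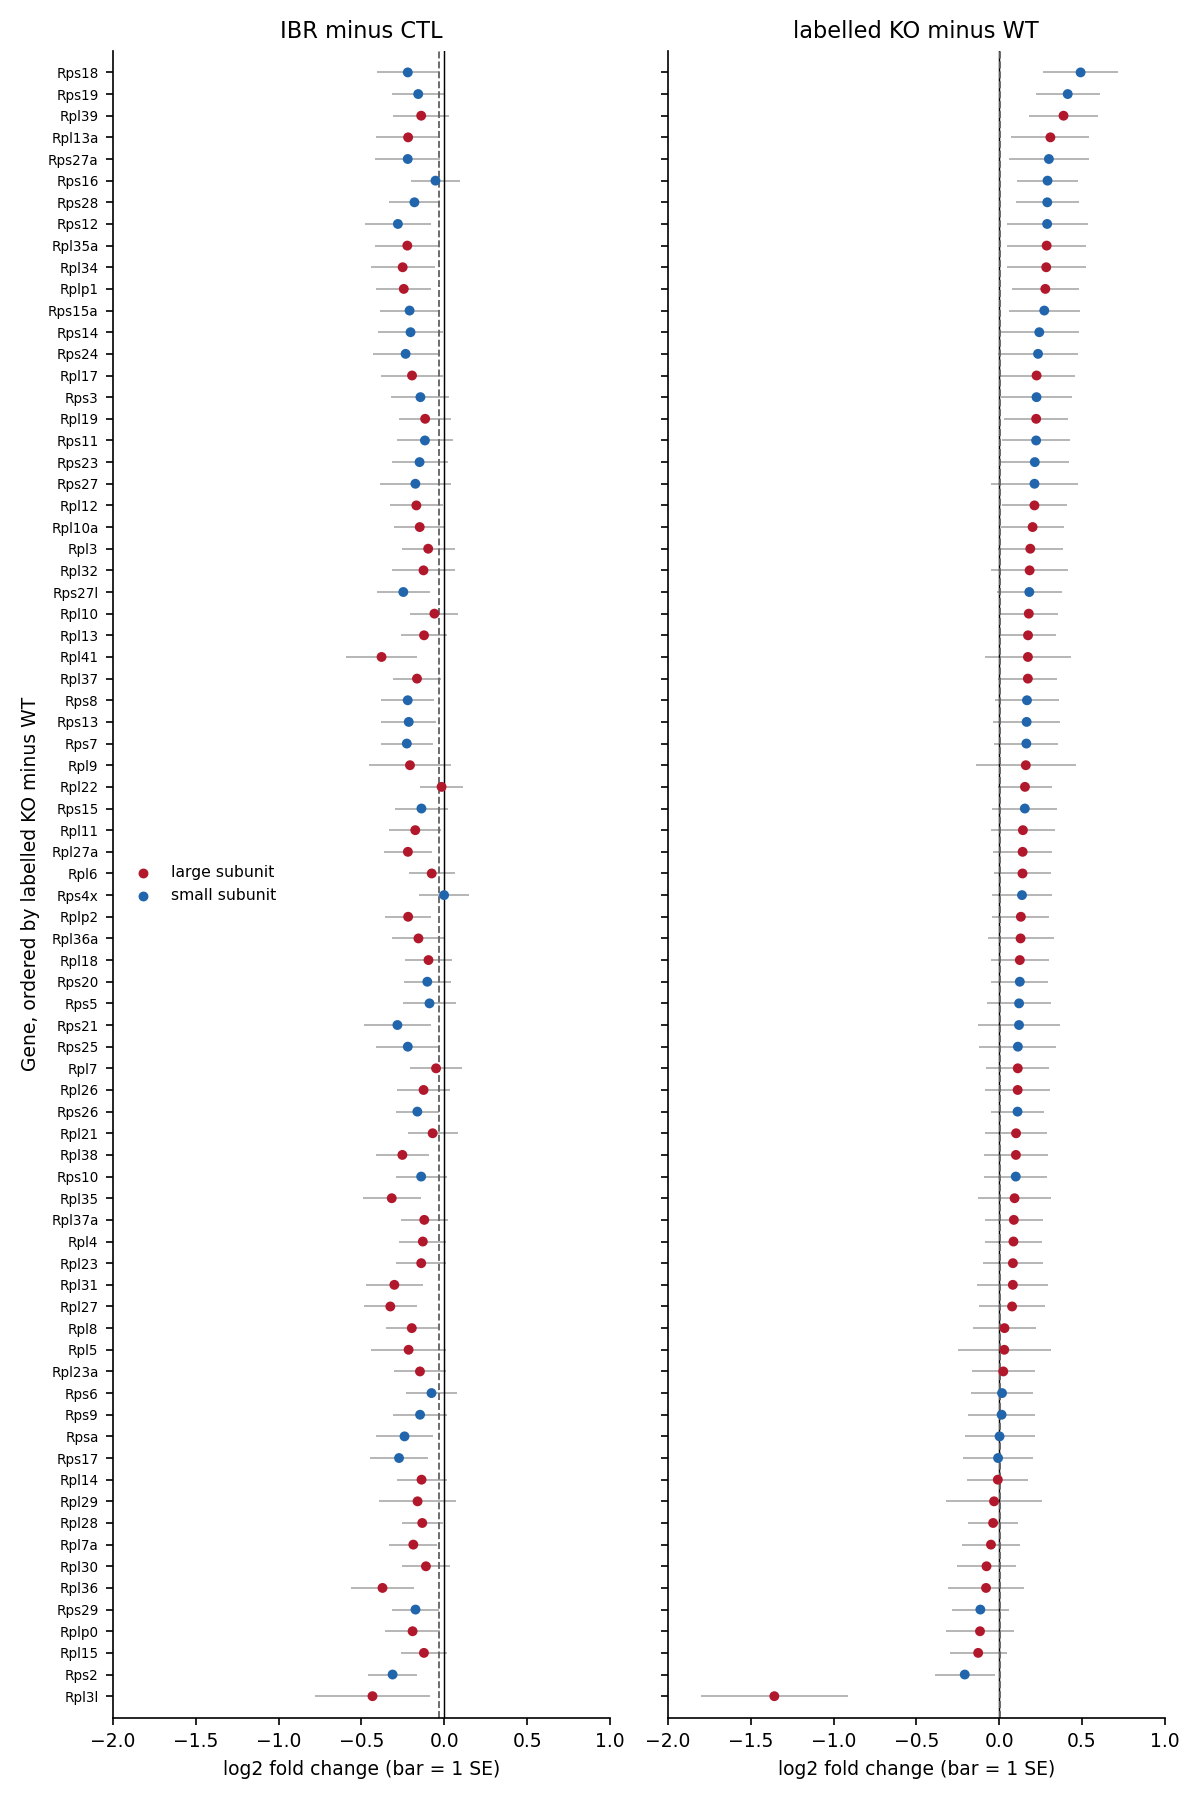
Log2 fold change of 76 of the 77 genes (x axes) for IBR minus CTL (left) and for labelled KO minus WT (right), with genes on the y axis in the order of the right panel. Points are fitted values with a bar of 1 standard error on each side, the dashed line is the median of all genes tested, and every left point is below 0 while 64 of 76 right points are above it.

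No ribosomal protein gene was called between the libraries labelled KO and WT, where 2.21% of all genes were called. At an unadjusted p under 0.05 there was 1 member, Rpl3l, against 25.7% of all genes. DESeq2 called only the same member, against 11.9% of all genes. The log2 difference was above 0 in 65 of 77 members, where 50.7% of all genes were above 0, with a median of 0.14 against 0.01 over all genes. With libraries scaled by total count alone 76 of 77 were above 0, and the median of all genes itself moved to 0.23, so that the members' median of 0.36 exceeded it by about as much as before. Both libraries labelled KO were above both WT libraries for 40 members (51.9%) against 26.3% of all genes, and below them for 4 members against 26.9%. The 95% interval lay within a 2-fold change for 76 members and within a 1.5-fold change for 39. These intervals rest on a spread estimated from all libraries, and the genotype libraries alone varied more, so the intervals may be too narrow.

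The estimate moved with each library left out. Without WT338 the median was 0.04 with 50 of 77 members above 0, without KO337 it was 0.08, without KO26 0.17 and without WT35 0.22. Markers of several cell types differed at the same time: leukocyte markers summed to 159 and 157 CPM in WT and 740 and 1046 CPM in the libraries labelled KO. In edgeR's test 4 of the 7 were called higher, where 2.21% of all genes were called. In a fit of the genotype libraries alone 0 of all genes were called. Fibroblast markers summed to 2206 and 1995 against 2537 and 8966 CPM, and atrial cardiomyocyte markers to 19746 and 18163 against 13944 and 9117 CPM, and all markers of the 3 lists were detected in both groups. Mesothelial markers summed to 230 and 247 against 179 and 93.9 CPM, and all 3 were lower without overlap (26.9% of all genes). Of 3 smooth muscle markers 1 was higher without overlap (26.3% of all genes). The groups overlapped for all 3 endothelial, 5 red blood cell and 2 adipocyte markers. The part of these markers' cells in the ribosomal protein values was not tested.

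The highest values among members of the small subunit were Rps18 and Rps19. Rps18, a protein of the head of the small subunit, stood at 96 and 88.7 CPM in WT and 125 and 135 CPM in the libraries labelled KO, a log2 difference of 0.49 (SE 0.23) with an adjusted p of 0.205 in edgeR's test. Rps19, the gene most often mutated in Diamond-Blackfan anaemia, stood at 65 and 60.6 against 75.2 and 92.2 CPM, a difference of 0.41 (SE 0.19) with an adjusted p of 0.204. The groups did not overlap for either gene, and neither difference passed the threshold.

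Rps2 was the lowest small-subunit member, at 317 and 290.1 CPM in WT and 267 and 259 CPM in the libraries labelled KO, a log2 difference of -0.21 (SE 0.18). Rps6 stood at 97.7 and 91.4 against 95.9 and 95.4 CPM (log2 0.02) and Rpsa at 281 and 243 against 267 and 257 CPM (log2 0.0024), so that the groups overlapped for both genes. The 95% interval was -0.40 to 0.43 for Rps6 and -0.47 to 0.47 for Rpsa on the log2 scale.

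Of the large subunit, Rpl39, a small protein of the exit tunnel, stood at 48.7 and 41.9 CPM in WT and 56.8 and 61.8 CPM in the libraries labelled KO, a log2 difference of 0.39 (SE 0.21) with an adjusted p of 0.264 in edgeR's test. Rpl13a, which also has a described role in silencing inflammatory messages, stood at 309 and 294 against 348 and 399 CPM, a difference of 0.31 (SE 0.24). Both genes were higher in KO26 and KO337 than in either WT library.

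The large-subunit members below 0, other than Rpl3l, had small differences. Rplp0, the scaffold of the stalk and a frequent reference gene, stood at 388 and 347 CPM in WT and 344 and 335 CPM in the libraries labelled KO (log2 -0.12), and Rpl15 at 88.9 and 72.7 against 76.2 and 71.8 CPM (log2 -0.13). With scaling by total count alone both were above 0, at 0.11 and 0.10, as was Rps2 at 0.02. The partners of Rplp0 in the stalk lay on the other side, Rplp1 at 0.28 and Rplp2 at 0.13, each with an interval that includes 0 (-0.17 to 0.73 and -0.25 to 0.51). Rpl29, with values of 68.6 and 34.7 CPM in WT and 40.7 and 60.4 CPM in the libraries labelled KO, and Rpl9, with 366, 448 and 206 CPM in CTL, were, after Rpl3l, the members with the largest spread within groups.

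Rpl3l had the largest difference of the family in the genotype experiment. It was at 19.9 and 15.7 CPM in the WT libraries against 10.9 and 3.17 CPM in KO26 and KO337, so the groups did not overlap and the lower value in the libraries labelled KO was the lowest in the series. The log2 difference was -1.36 (SE 0.44), with a 95% interval of -2.35 to -0.37, and the adjusted p of 0.107 in edgeR's test lay beyond the threshold. In a fit of the genotype libraries alone the difference was -1.33 and Rpl3l was not called (adjusted p = 0.371, edgeR). DESeq2 with all libraries called Rpl3l (adjusted p = 0.0261). Without KO26 the difference was -2.51 and without KO337 it was -0.73, each from the 1 remaining library labelled KO.

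Rpl3, the general form of the same protein, overlapped between these groups, at 181 and 168 CPM in WT and 178 and 219.5 CPM in the libraries labelled KO (log2 0.19, SE 0.20). Per kilobase of coding sequence, Rpl3l made up 9.84% and 8.46% of the Rpl3 and Rpl3l sum in WT and 5.71% and 1.41% in KO26 and KO337. The shares did not overlap, and the exact permutation p was 0.333, the smallest possible with 2 libraries against 2. The atrial cardiomyocyte marker sum was lowest in KO337, at 9117 CPM, as was Rpl3l, and the part of the number of muscle cells in the Rpl3l value was not tested.

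In the drug experiment Rpl3l was at 33.3, 40.9 and 25.7 CPM in CTL and 22.8, 25.8 and 25.4 CPM in IBR, a log2 difference of -0.43 (SE 0.34) with an adjusted p of 0.832 in edgeR's test. The groups overlapped, since CTL3 lay between the IBR values. Its share of the pair was 6.45%, 8.35% and 6.80% in CTL and 4.88%, 6.56% and 6.12% in IBR (exact permutation p = 0.2), and these also overlapped.

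**Figure D4:**
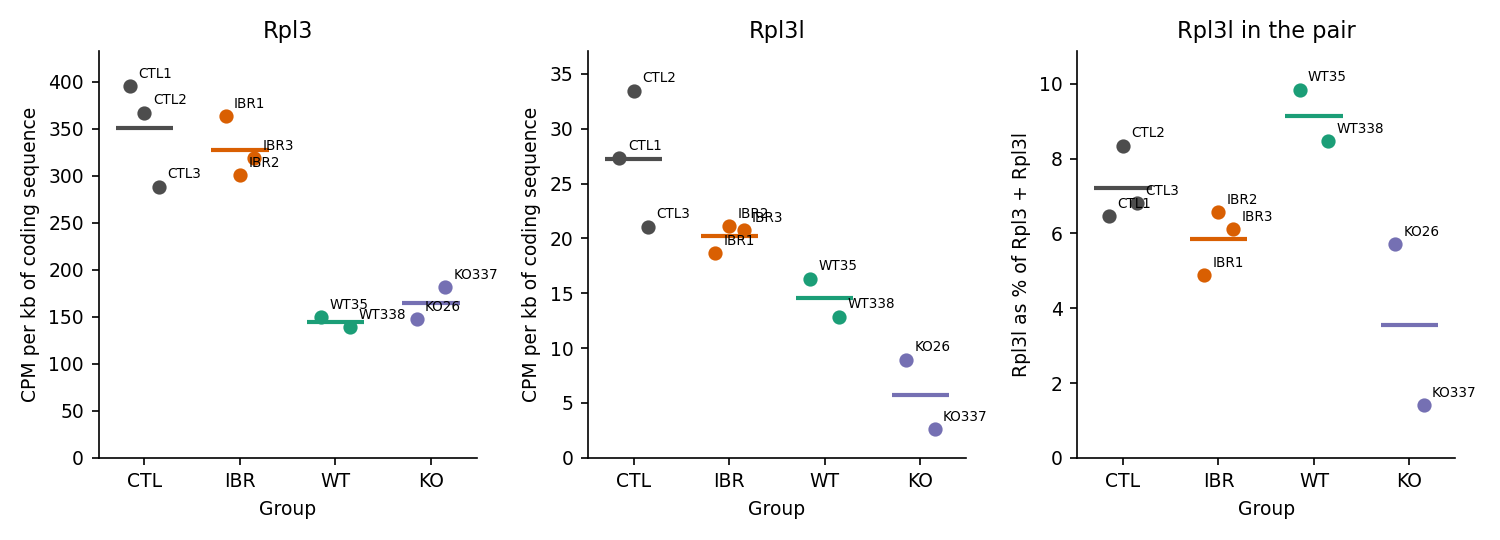
Level of Rpl3 and of Rpl3l (CPM per kilobase of coding sequence) and the percentage of Rpl3l in their sum (y axes) in each library, by group (x axis); points are libraries and bars group means. Rpl3l made up 9.84% and 8.46% in WT and 5.71% and 1.41% in the libraries labelled KO, while Rpl3 levels of these 4 libraries overlapped.

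For the other pairs of paralogues the shares overlapped between the groups of both comparisons. Rps27l, a homologue of Rps27 known as a p53 target, made up 17.7%, 17.7% and 21.0% of the Rps27 and Rps27l sum per coding length in CTL, 17.4%, 19.2% and 16.6% in IBR, 16.1% and 17.7% in WT and 17.0% and 16.2% in the libraries labelled KO. The exact permutation p was 0.5 for IBR against CTL and 1 for labelled KO against WT. Rpl22l1, a homologue of Rpl22 that is outside the naming rule, made up 25.8% ± 1.24 of its pair in CTL and 23.0% ± 2.83 in IBR (SD, n = 3 libraries each; exact permutation p = 0.3), and 25.1% and 19.7% in WT against 19.4% and 21.1% in the libraries labelled KO. Rpl10l, a germline version of Rpl10, had 0 counts in every library, and Rps4l, annotated as a pseudogene, stood at 12.6, 17.6 and 10.7 CPM in CTL.

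The difference between the effects of drug and genotype was tested directly, and the 2 comparisons share no library. None of the 77 members was called, where 0.026% of all genes were called, and the difference (IBR minus CTL less labelled KO minus WT) was below 0 in 75 of 77 members against 52.7% of all genes, with a median of -0.31. At an unadjusted p under 0.05 there were 2 members, Rps18 and Rps19, against 9.79% of all genes, with adjusted p of 0.487 and 0.499 in edgeR's test. For Rpl3l, labelled KO minus WT, which enters this difference, was -1.36 with all libraries. Without KO26 it was -2.51, from the 1 remaining library labelled KO. With DESeq2 and with all libraries 0 members were called.

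Ribosomal proteins outside the naming rule had values like those of the members, 3 of 3 below 0 for IBR minus CTL and 3 of 3 above 0 for labelled KO minus WT, with 0 called by edgeR, 0 at an unadjusted p under 0.05 and 0 called by DESeq2. Fau, which encodes Rps30 fused to a ubiquitin-like protein, stood at 86.7 and 78.5 CPM in WT and 102 and 112 CPM in the libraries labelled KO (log2 0.37, SE 0.20), and Rack1, a signalling scaffold on the small subunit, at 333 and 302 against 324 and 363 CPM. Rps27a, a member whose product is made as a fusion with ubiquitin, stood at 186, 223 and 122 CPM in CTL. Rps27a differed by -0.22 for IBR minus CTL and by 0.30 for labelled KO minus WT.

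The mitochondrial ribosome, a separate machine that makes the few proteins encoded by mitochondrial DNA, had values below 0 in both comparisons. Of 75 mitochondrial ribosomal protein genes tested, all 75 had a log2 difference below 0 for IBR minus CTL (median -0.28), against 55.2% of all genes. There 0 were called by edgeR or DESeq2, 12 had an unadjusted p under 0.05 (5.52% of all genes in either direction) and 30 (40%) were lower without overlap (7.55% of all genes). For labelled KO minus WT 72 were below 0, against 49.2% of all genes (median -0.48), 60 (80%) were lower without overlap (26.9% of all genes) and 45 had an unadjusted p under 0.05 (25.7%). Of the 75, 1 was called by edgeR (2.21% of all genes), 11 by edgeR without the filter on low counts (4.68%), 12 by DESeq2 (11.9%) and 0 by edgeR in a fit of the genotype libraries alone (0%). With scaling by total count alone 74 and 64 of the 75 were below 0 and the medians were -0.20 and -0.26. The gene that edgeR called was Mrpl55, a large-subunit protein, at 31.7 and 28.5 CPM in WT and 17.5 and 13.4 CPM in the libraries labelled KO (log2 -0.96, SE 0.17, adjusted p = 0.032 in edgeR's test). The call was lost without WT35 (adjusted p = 0.154), without WT338 (0.116) and without KO337 (0.0987). The list's median was -0.27 without KO337 and -0.72 without KO26, where 47 of the 75 were called against 24.3% of all genes. The mitochondrial and cytosolic lists had medians of opposite sign in the genotype experiment, and the difference between the lists was not tested.

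Of the genes that build, use or control ribosomes, 0 were called by edgeR with all libraries and the filter on low counts. Without that filter Eef1a2 and Eif4ebp1 were called lower for labelled KO minus WT (adjusted p = 0.014 and 0.035, edgeR), where 4.68% of all genes were called. Among 23 other TOP messages the median was -0.09 for IBR minus CTL and -0.11 for labelled KO minus WT, among 23 initiation factors -0.08 and -0.19, among 30 assembly factors -0.12 and -0.10, among 13 genes of RNA polymerase I -0.10 and -0.02, and among 13 genes that control these messages, such as mTOR, -0.07 and -0.14. In each list 0 to 1 genes had an unadjusted p under 0.05 for IBR minus CTL (5.52% of all genes) and 1 to 2 for labelled KO minus WT (25.7%). For labelled KO minus WT DESeq2 called 1 TOP message (Eef1a2) and 1 assembly factor (Nolc1), against 11.9% of all genes. With scaling by total count alone the medians for labelled KO minus WT were above 0 in all 5 lists, from 0.03 to 0.21, and for IBR minus CTL those of the TOP messages, initiation factors and control genes were at 0.0011, 0.01 and 0.0075. Without KO26 edgeR called 3 TOP messages (1 higher and 2 lower, Pabpc1 and Eef1a2 among them), and lower values in 3 initiation factors, 1 assembly factor, 2 genes of RNA polymerase I and 3 control genes. In that fit 24.3% of all genes were called, and the share in each of these lists was no higher than that. Of 7 chaperones of ribosomal proteins (medians -0.0056 and -0.15), 0 were called by edgeR with all libraries. At an unadjusted p under 0.05 there were 0 and 2 of the 7, against 5.52% and 25.7% of all genes. For labelled KO minus WT DESeq2 called Nap1l4 (adjusted p = 0.0328), where 11.9% of all genes were called. Without KO26, which leaves 1 library labelled KO, the chaperones' median was -0.21 and Nap1l4 was at -0.84. Of the TOP messages, the elongation factor Eef1a2, a muscle and neuron form, stood at 873 and 804 CPM in WT and 565 and 285 CPM in the libraries labelled KO (log2 -0.98, SE 0.28, adjusted p = 0.0813, edgeR), and the poly(A)-binding protein Pabpc1 at 170.2 and 184 against 224 and 294 CPM (log2 0.55, SE 0.18, adjusted p = 0.108, edgeR). Neither pair of groups overlapped.

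Named genes of the other lists did not pass edgeR's test. Nolc1, a chaperone of nucleolar particles, stood at 42.4 and 49.7 CPM in WT and 33 and 32.8 CPM in the libraries labelled KO (log2 -0.49, SE 0.15, adjusted p = 0.0887, edgeR). The inhibitor of cap-dependent translation Eif4ebp1 stood at 67.3 and 50.2 against 44.9 and 30.3 CPM (log2 -0.64, SE 0.22), Mtor at 77.3 and 86.5 against 69.2 and 53.9 CPM (log2 -0.41, SE 0.17), and the cap-binding protein Eif4e at 80.8 and 78 against 68 and 52 CPM (log2 -0.41, SE 0.17). In all 4 genes both libraries labelled KO were below both WT libraries.

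**Figure D5:**
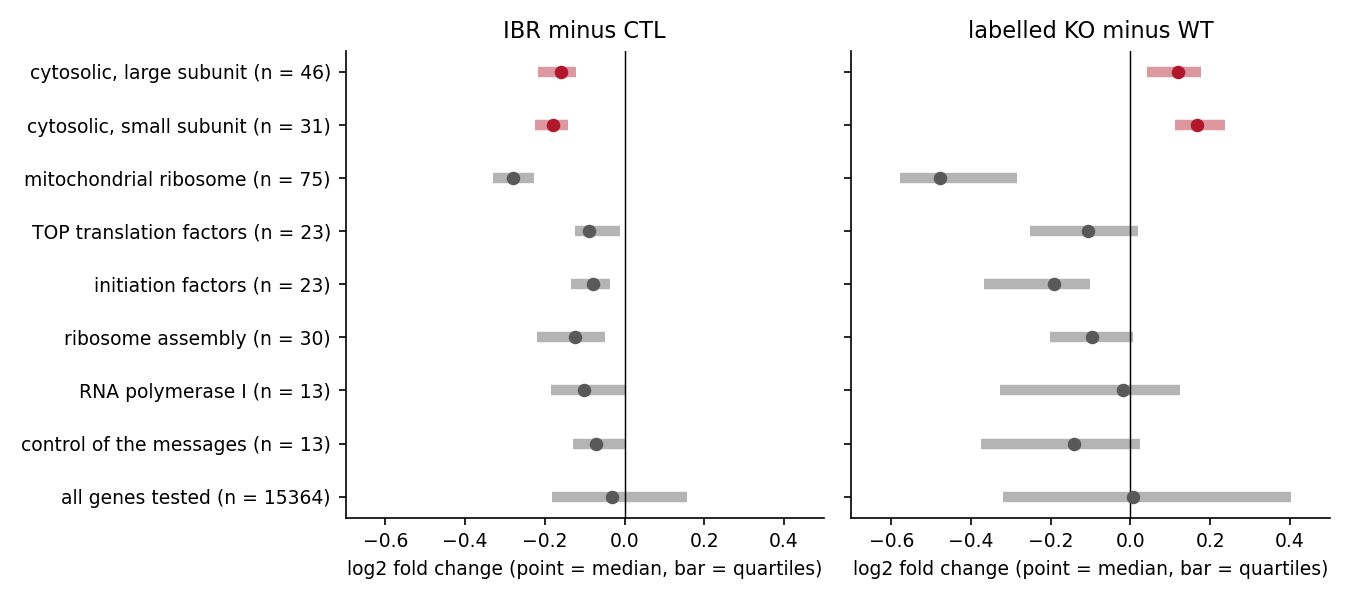
Log2 fold change (x axes) over genes of each list (y axis, with the number of genes tested), for IBR minus CTL (left) and labelled KO minus WT (right); points are medians over genes and bars run from the lower to the upper quartile, which describe genes and not replicate error. With TMM scaling the cytosolic lists lie above 0 only in the right panel, where the mitochondrial list has a median of -0.48.

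Ribosomal protein genes have many processed pseudogenes, and 38 of 187 annotated in the files had enough counts to be tested. The pseudogene rows took 47.1 to 85.9 CPM in all per library, against 10613 to 21833 CPM of the 77 members. Rps13-ps1 stood at 11 and 9.05 CPM in WT and 0.174 and 0.362 CPM in the libraries labelled KO (log2 -5.15, SE 0.47, adjusted p = 0.00421, edgeR), and at 0.367 to 1.21 CPM in the CTL and IBR libraries. Rps15a-ps8 stood at 1.78 and 1.57 CPM in WT and had 0 counts in the other 8 libraries, where 0 counts allow up to 0.136 to 0.216 CPM (3 counts, for counting error only). Its adjusted p of 0.0454 (edgeR) was lost without WT35, WT338 or KO337, at 0.228, 0.188 and 0.134, and with scaling by total count alone (0.0513). In a fit of the 4 genotype libraries alone neither pseudogene was called (adjusted p = 0.297 for both, edgeR). By name the parent genes are Rps13 and Rps15a, of which Rps13 had a log2 difference of 0.17 and Rps15a of 0.27. Reads shared between a parent gene and a copy can be split or dropped, so that the values of both are uncertain to that extent.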

How the data were processed

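The authors deposited unnormalized read counts for each gene in 10 libraries of mouse left atria made with a directional poly(A) kit, per the labels' protocols. The submitters' processing notes name STAR, HTSeq, edgeR and build mm9, and neither versions nor annotation. Strand was not used in counting, as the file names state, so antisense or overlapping genes cannot be told apart, and reads without a unique position (11.8% to 27.4% of records) were set aside, which bears on genes with pseudogene copies. The 5 rows for unassigned reads stayed out: 13.5% to 19.9% of records lay in no feature and 3.14% to 3.99% were ambiguous.

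Groups came from the titles. Identifiers were matched to symbols and gene types of GENCODE vM21 (32860 of 37583). This is another build than mm9, so gene coordinates are given only for RefSeq promoters on GRCm38.p6. The fit used edgeR 4.0.16 (R 4.3.3, limma 3.58.1): filterByExpr (minimum count 10, total 15) kept 15364 genes, libraries were scaled by TMM, and 1 quasi-likelihood model with 4 group means left 6 residual degrees of freedom. Called means a Benjamini-Hochberg adjusted p under 0.05 over all genes tested, and standard errors were derived from each log2 fold change and its F statistic. The common biological coefficient of variation (0.221) lay above that of the drug libraries (0.167) and below that of the genotype libraries (0.291). Genotype p-values may therefore be too small and genotype intervals too narrow. Library sums were compared by exact permutation tests. Coding length is the median over the principal protein-coding transcripts of GENCODE vM21. The fit was tested on simulated data. No libraries agreed within sampling noise (chi-square over degrees of freedom of 14.7 or more), so none was merged.

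Named genes were paralogue pairs and Rplp0, Rpsa, Rps6 and Rpl13a, the 4 members at either end of each comparison and of the levels, the 3 with the largest spread, and called or smallest-p genes of the other lists. Of the genes so named, 1 member is not reported here. Members named for a role besides these were added after their values were seen. Members, lists and rules were chosen with earlier results of these data known. Alternatives were other scalings (DESeq2 size factors, total count, TMM without the members), filters, DESeq2 1.42.0, a fit of each experiment alone, a replicate block and each library left out.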

Additional observations from a re-analysis of the deposited data

How the results depend on the processing

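Members called stayed at 0 for IBR minus CTL under every alternative run, and for labelled KO minus WT under all but DESeq2 (1, Rpl3l) and the omission of each library in turn (0 to 1), likewise for the difference of both effects (0 to 1). The calls over all genes depended on the method far more. For IBR minus CTL 0 genes became 2 without a filter, 2 with DESeq2 and 141 without CTL3 and KO337 (chosen after seeing the data), and stayed at 0 with each library left out. For labelled KO minus WT 339 genes became 1146 without a filter, 1830 with DESeq2, 0 in a fit of these 4 libraries alone, 59 without CTL3 and KO337, and 14 to 3933 with each library left out. Total-count scaling called 361, of which 295 were higher and 66 lower, against 201 and 138. It moved the members' median for labelled KO minus WT to 0.36 and that of all genes to 0.23.

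Values near 0 changed sign with scaling. For IBR minus CTL, total-count scaling gave 0.0737 for Rpl22, 0.0317 for Rpl10, 0.0899 for Rps4x, 0.0188 for Rps6 and 0.0446 for Rpl7. Without a filter Rpl22 was 0.0282 and Rps4x 0.0441. Rps4x was 0.000589 with DESeq2 size factors and 0.000586 with DESeq2, and in the fit of the drug libraries alone it was 0.0265, with Rpl22 at 0.0105. For labelled KO minus WT, Rpsa was -0.00155 with DESeq2 size factors, -0.00161 with DESeq2 and -0.0381 without a filter, where Rps6 was -0.0229. Total-count scaling gave 0.195 for Rpl22l1, 0.110 for Rplp0, 0.0987 for Rpl15 and 0.0177 for Rps2. With each library left out, the range for IBR minus CTL was -0.111 to 0.0894 for Rps4x, -0.144 to 0.0640 for Rpl22, -0.163 to 0.0142 for Rpl10, -0.234 to 0.0558 for Rps6, -0.192 to 0.0425 for Rpl7 and -0.415 to 0.0472 for Rps27. For labelled KO minus WT it was -0.109 to 0.105 for Rpsa, -0.0413 to 0.0615 for Rps6, -0.278 to 0.236 for Rpl22l1 and -0.275 to 0.0203 for Rpl15. The cause of these changes was not tested. Mrpl55 lost its call in the fit of the genotype libraries alone (adjusted p = 0.307, edgeR).

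Whether the replicate numbers shared by CTL and IBR pair the libraries could not be decided from 3 libraries a group. Deviations of same-numbered libraries correlated at 0.000643, 0.226 and 0.0601 over all genes, and those of differently numbered libraries at -0.275 to 0.237. With the number as a block 0 members and 0 of all genes were called (edgeR, smallest adjusted p of a member 0.334), the members' median was -0.13, Rpl22 was 0.0223 and Rps4x 0.0334. WT and labelled KO share no number. Members' summed level differed by -0.32 to -0.05 for IBR and CTL and by 0.04 to 0.20 for labelled KO and WT with each library left out, and members' medians by -0.32 to -0.05 and 0.04 to 0.22.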
